A study of Mus musculus with 4 samples.

Results

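Xenobiotic metabolism enzymes alter and conjugate foreign compounds, and many of them also act on lipids, steroids and signalling molecules made by the body. Genes of 4 of these enzyme families were followed by RNA sequencing in cells of the mouse inner ear grown as primary cultures: the cytochrome P450 families Cyp1 to Cyp4, the glutathione transferases (Gst and Mgst genes), the carboxylesterases (Ces) and the UDP-glucuronosyltransferases (Ugt). The members were taken by gene symbol alone, which gave 149 of the 24346 symbols measured, and the 39 members above 1 FPKM in any library are described here. FPKM are fragment counts scaled by transcript length and library size, so levels can be compared between genes. The study has 2 vestibular samples, cultured from the balance organs, and 2 cochlear samples, cultured from the hearing organ. Each group holds a sample numbered 1 and one numbered 2, and strain, age, treatment, passage and time in culture are not stated. Whether these samples are separate animals or cultures is not stated either, so p-values measure only their spread, which may be technical.

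As background, drug metabolism is usually described in phases. P450s, which take electrons from the reductase encoded by Por, and carboxylesterases expose or add reactive groups, and the transferases then attach glutathione or glucuronic acid so that transporters can export the product. The best studied members are enzymes of the liver, induced through sensors such as the aryl hydrocarbon receptor (Ahr), the pregnane X receptor (Nr1i2) and the constitutive androstane receptor (Nr1i3). In the inner ear, glutathione conjugation is known mainly as a defence against reactive oxygen and against drugs that damage hair cells.

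Of the 149 rows, 85 had P450 symbols, 24 those of glutathione transferases, 19 of carboxylesterases and 21 of UDP-glucuronosyltransferases. Above 1 FPKM in any library were 14, 20, 3 and 2 of them. The other 110 lay at or below that level in every library, and 78 of the 149 were listed at 0 in all 4. Among the 110 are pseudogene rows, such as Cyp2c53-ps and Ces2d-ps, and the opposite-strand row Cyp4x1os, all taken in by symbol. The classical liver P450s were among the low ones. The Cyp2c genes summed to at most 0.133 FPKM and the Cyp3a genes to at most 0.137 in any library, Cyp2b10 and Cyp3a11 were listed at 0 in all 4, and Cyp1a1, the usual target gene of Ahr, had 0.217 and 0.117 FPKM in vestibular cultures 1 and 2 and 0.191 and 0.411 in cochlear cultures 1 and 2. Just inside the limit of 1 FPKM were Ces2g at 1.12, Gsta2 at 1.16 and Gstp2 at 1.21 in their highest library. Just outside were Cyp2g1 at 0.973, Ces1a at 0.828 and Cyp4f39 at 0.823.

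Several members are close copies of one another, so the sequences that tell them apart decide how fragments were divided among them. The 6 mu-class genes above 1 FPKM (Gstm1, Gstm2, Gstm4, Gstm5, Gstm6 and Gstm7) lie together on chromosome 3 of GRCm38 between 107895821 and 108044894. The coding sequences, read from the longest protein-coding GENCODE M21 transcript of each gene, were 85.9% identical between Gstm1 and Gstm2, and 71.4% identical between Gstm1 and Gstm5. Shown next, 5′ to 3′, are the 90 aligned coding bases without gaps in which the other 5 genes differ most from Gstm1, near the end of the coding sequence. Capitals mark each base that differs from Gstm1 at the same place of the alignment.
Gstm1: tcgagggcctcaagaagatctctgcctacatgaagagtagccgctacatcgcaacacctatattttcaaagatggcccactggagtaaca
Gstm2: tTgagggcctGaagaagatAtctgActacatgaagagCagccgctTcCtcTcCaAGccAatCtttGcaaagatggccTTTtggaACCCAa
Gstm4: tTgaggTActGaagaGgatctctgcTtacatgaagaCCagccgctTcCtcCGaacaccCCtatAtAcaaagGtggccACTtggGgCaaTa
Gstm5: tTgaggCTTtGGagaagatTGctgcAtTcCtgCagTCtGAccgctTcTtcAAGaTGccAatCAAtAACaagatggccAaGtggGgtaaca
Gstm6: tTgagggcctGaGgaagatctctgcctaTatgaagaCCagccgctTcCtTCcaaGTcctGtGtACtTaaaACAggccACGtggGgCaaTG
Gstm7: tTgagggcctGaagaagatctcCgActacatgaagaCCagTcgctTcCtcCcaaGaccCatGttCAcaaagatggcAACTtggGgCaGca

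The stretch differs from Gstm1 at 22 bases in Gstm2 and Gstm7, 23 in Gstm4, 27 in Gstm6 and 33 in Gstm5. Over whole transcripts, 23.1% of the 50-base windows of Gstm1 also occur in a transcript of another gene, most of them in Gstm2-ps1, and 9.36% of those of Gstm2 do. For Gstm4, Gstm5 and Gstm7 no window is shared. Among the other members, Gstp1 shares 62.3% of its windows with Gstp2, and Gsta2 shares 64.2%, mostly with Gsta1. The Ugt1a genes share whole exons on the same strand, so that Ugt1a7c shares 69.3% of its windows and Ugt1a6a shares every one. How the authors' counting divided fragments among such copies is not given in the sources used here, and the levels of these genes are uncertain for that reason. Of the 39 members, 17 share no window and 9 share more than 10%.

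RefSeq promoter windows on GRCm38.p6, running from 250 bases before to 50 after a start site, were found for 33 of the 39 members. The windows of Gstm1 (chr3:108017924-108018223), Gstm2 (chr3:107986371-107986670) and Cyp2s1 (chr7:25816476-25816775), all on the minus strand, are shown because the levels of these 3 genes differ between libraries in different ways, described further on. Capitals mark GCGTG, the core of the Ahr binding motif, and TGACNNNGC, the core of the antioxidant response element bound by Nrf2, searched on both strands.
Gstm1: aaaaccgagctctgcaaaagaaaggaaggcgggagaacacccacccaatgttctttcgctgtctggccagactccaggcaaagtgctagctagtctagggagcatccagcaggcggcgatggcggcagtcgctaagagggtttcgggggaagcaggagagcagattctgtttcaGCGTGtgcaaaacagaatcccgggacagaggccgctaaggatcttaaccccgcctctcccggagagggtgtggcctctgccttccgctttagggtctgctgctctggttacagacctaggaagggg
Gstm2: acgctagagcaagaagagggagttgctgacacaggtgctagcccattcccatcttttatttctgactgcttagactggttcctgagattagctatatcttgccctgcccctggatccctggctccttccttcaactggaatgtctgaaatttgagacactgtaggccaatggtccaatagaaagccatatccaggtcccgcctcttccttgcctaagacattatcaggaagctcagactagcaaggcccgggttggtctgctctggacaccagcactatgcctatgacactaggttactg
Cyp2s1: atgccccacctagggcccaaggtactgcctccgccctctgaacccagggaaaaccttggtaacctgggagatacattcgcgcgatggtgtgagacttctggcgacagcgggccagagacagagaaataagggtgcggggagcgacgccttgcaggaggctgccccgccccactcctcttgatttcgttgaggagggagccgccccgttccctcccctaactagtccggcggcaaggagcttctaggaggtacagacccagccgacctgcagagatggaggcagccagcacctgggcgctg

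GCGTG occurs once in the Gstm1 window, 76 bases before the start site, and neither motif occurs in the windows of Gstm2 and Cyp2s1. With 1 window per gene, 10 of the 33 members (30.3%) held GCGTG, against 32.4% of 32851 windows over all genes, and 5 (15.2%) held TGACNNNGC, against 12.4%. The longer form TNGCGTG was in 1 window (3.03%, against 5.07%) and TATAAA, the TATA box, in 6 (18.2%, against 13.6%). These matches describe the letters in the windows and nothing about binding. The shares over all genes count every window, with several for some genes, while each member has 1. For a member, the start site nearest the gene's 5′ end was used. It still lay 24267 bases from that end in Mgst2 and 10654 in Cyp2j6.

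Members and other genes were compared with limma on log2(FPKM + 1), over the 13200 genes with a mean of at least 1 FPKM, and each log2 difference was taken as the vestibular mean less the cochlear mean of these values, a scale that shrinks the differences of low genes. Of the 39 members, 35 were tested, 33 of them with a mean of at least 1 FPKM in both groups. The exceptions were Ces1g and Cyp2r1, with cochlear means under 1. Cyp2f2, Ces2g, Gsta2 and Gstp2 were above 1 FPKM in a single library and had means under 1 FPKM. An exact permutation test of 2 samples against 2 cannot give a 2-sided p under 0.333, so a call depends on limma's sharing of spread across genes. FPKM totals ran from 479380 to 519122 per library, and the number of fragments behind them is unknown. An exact 0 can be a failed estimate in these files, since all 4 libraries have a 0 for Rpl26, a ribosomal protein gene.

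No member passed an adjusted p of 0.05 in limma (Benjamini-Hochberg over all genes tested), where 0.0303% of all genes did. At an unadjusted p under 0.05 there were 7 of 35 members, 2 higher and 5 lower in vestibular cultures. That is 20.0% of the members against 18.2% of all genes, or 7.61% higher and 10.6% lower over all genes, so the members' share lies near the background. This nearness holds for the fit of all 4 libraries without a block. Leaving out 1 library moved the members' count and the share of all genes, and not always together. The groups did not overlap in 22 members (62.9%), against 55.3% of all genes: 13 were higher and 9 lower in vestibular cultures, where 26.9% and 28.4% of all genes were. The median log2 difference of the members was 0.16, against 0.01 over all genes, and the median size of the difference regardless of sign was 0.47, against 0.25. Levels were within 1.5-fold over all 4 libraries in 10 of 35 members (28.6%), against 50.6% of all genes.

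**Figure D1:**
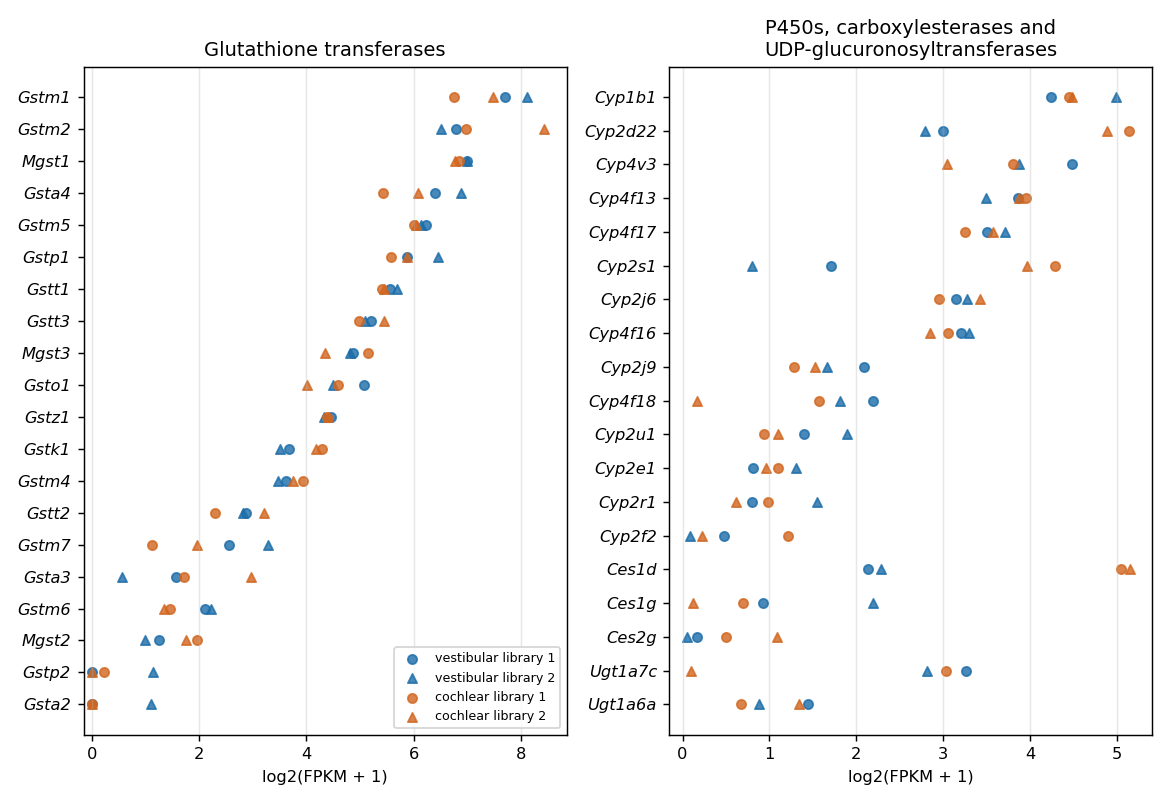
Level of each of the 39 members above 1 FPKM in each library, as log2(FPKM + 1) on the x axis, with 1 point per library (blue vestibular, orange cochlear, circles library 1, triangles library 2) and glutathione transferases on the left. Ces1d, Cyp2d22 and Cyp2s1 have both cochlear points far to the right of both vestibular points, and Ugt1a7c and Cyp4f18 have cochlear library 2 alone at the far left.

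Glutathione transferases made up most of the summed level of the 4 families, with 88.1% and 89.0% of it in vestibular 1 and 2 and 79.8% and 86.5% in cochlear 1 and 2. Their sum was 863 and 962 FPKM in the vestibular libraries and 692 and 1011 in the cochlear libraries, which overlap. P450 genes summed to 101 and 104 FPKM in vestibular and to 134 and 119.8 in cochlear cultures. Carboxylesterases summed to 5.37 and 7.73 against 33.2 and 36.0 FPKM. UDP-glucuronosyltransferases summed to 10.7 and 7.08 against 7.80 and 1.76. The groups thus did not overlap for the P450 and carboxylesterase sums, both higher in cochlear cultures. The P450 order came from Cyp2d22 and Cyp2s1. Without them the other 83 P450 rows summed to 91.8 and 97.3 FPKM in vestibular and 81.1 and 76.7 in cochlear cultures. That is the opposite order, in a sum taken after the values were seen. Of the 13 P450 genes tested, 10 had a positive log2 difference, that is, toward vestibular cultures, as did 6788 of all 13200 genes tested. Without overlap, 5 of the 13 were higher and 3 lower in vestibular cultures, where 26.9% and 28.4% of all genes were. In these bulk samples, fewer cells of a type and less RNA per cell cannot be told apart.

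The differences of largest size were 3 genes of the first phase, all higher in cochlear cultures: the carboxylesterase Ces1d, and the P450s Cyp2s1 and Cyp2d22. Ces1d, an ester hydrolase that also splits stored triglycerides, had 3.40 and 3.86 FPKM in vestibular 1 and 2 and 32.0 and 34.5 in cochlear 1 and 2. Its groups lay far apart and each was tight, with a cochlear mean 9.17-fold the vestibular mean and a log2 difference of -2.89 (SE 0.12, limma adjusted p 0.0665). Ces1d lies on chromosome 8 at 93166068 to 93197838 on the minus strand of GRCm38.

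Cyp2s1, a P450 known from epithelia outside the liver, measured 2.26 and 0.741 FPKM in vestibular against 18.5 and 14.7 in cochlear cultures. Both cochlear libraries were high and vestibular 2 was the lowest, with a log2 difference of -2.87 (SE 0.37, limma adjusted p 0.118). The gene lies on chromosome 7 at 25802475 to 25816913 on the minus strand, and its exons overlap Gm26707 on the other strand.

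Cyp2d22 belongs to the 2D subfamily, whose human member oxidises many drugs. It measured 6.9998 and 5.92 FPKM in vestibular against 34.1 and 28.4 in cochlear cultures, a cochlear mean 4.84-fold the vestibular mean (log2 difference -2.11, SE 0.16, limma adjusted p 0.0743). It lies on chromosome 15 at 82370527 to 82380260 on the minus strand. Cyp2d22 was almost the whole of its subfamily, as the 10 Cyp2d rows summed to 7.19 and 5.92 against 34.4 and 28.4 FPKM. Ces1d likewise held 96.4% and 95.9% of the carboxylesterase sum in the cochlear libraries, and 63.2% and 49.9% in the vestibular libraries.

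**Figure D2:**
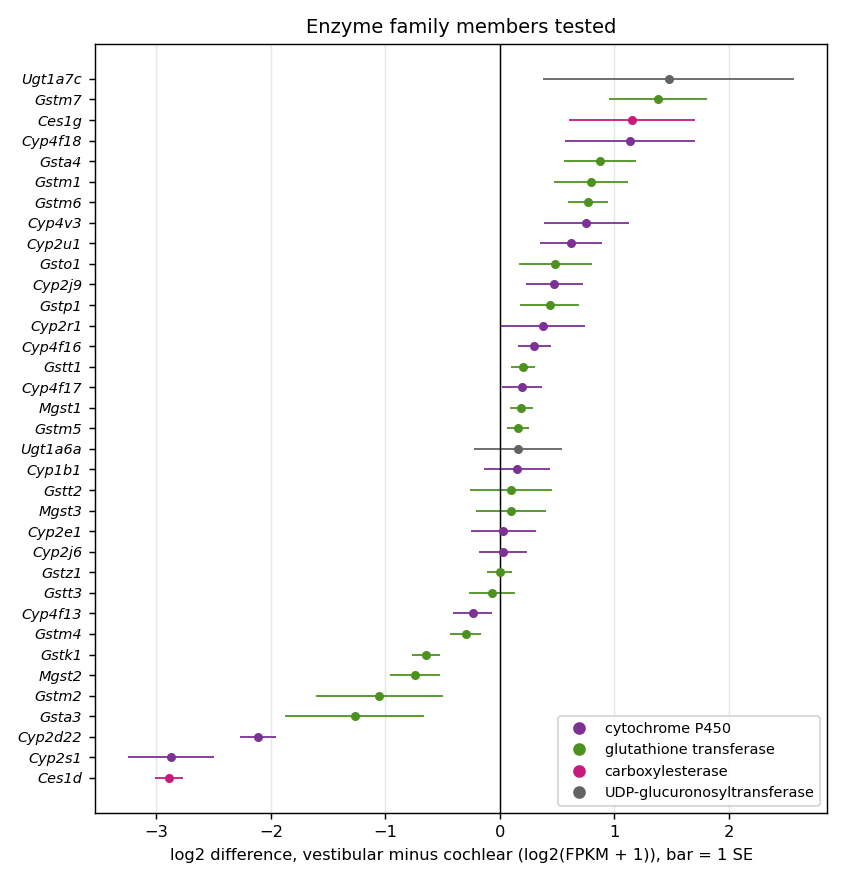
Log2 difference, vestibular minus cochlear on the log2(FPKM + 1) scale, of the 35 members tested, with bars of 1 standard error from limma and colours by family. Ces1d, Cyp2s1 and Cyp2d22 stand apart at the lower end with -2.89, -2.87 and -2.11, and Ugt1a7c at the upper end has the widest bar (SE 1.10).

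The other P450s tested had log2 differences of smaller size than Cyp2s1 and Cyp2d22. Cyp1b1, an Ahr target that oxidises oestrogens and retinoids, was the P450 with the highest mean level, at 17.9 and 30.7 FPKM in vestibular 1 and 2 and 20.8 and 21.3 in cochlear 1 and 2. The vestibular libraries lay on both sides of the cochlear ones (log2 difference 0.15, SE 0.29, limma adjusted p 0.798). Without vestibular 2 the difference was -0.22.

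Among the fatty acid hydroxylases of the Cyp4 family, Cyp4v3 measured 21.3 and 13.6 FPKM in vestibular against 12.9 and 7.22 in cochlear cultures (log2 difference 0.75, SE 0.37, limma adjusted p 0.372). The groups did not overlap, although vestibular 2 and cochlear 1 lay close together. Cyp4f13 had 13.5 and 10.3 against 14.5 and 13.7 FPKM (log2 difference -0.24, limma adjusted p 0.501), and Cyp4f17 had 10.4 and 12.0 against 8.52 and 10.9 (0.20, adjusted p 0.570). Together the 10 Cyp4f rows summed to 36.4 and 34.1 FPKM in vestibular and 33.0 and 32.1 in cochlear cultures. Of the remaining tested P450s, the fatty acid epoxygenase gene Cyp2j6 and the fatty acid hydroxylase gene Cyp4f16 reached 9.69 and 8.84 FPKM in their highest library. Cyp2j9, Cyp2u1, Cyp2e1, which oxidises ethanol, and Cyp2r1, the main vitamin D hydroxylase of the liver, reached at most 3.26 FPKM. Log2 differences of these 6 genes ran from 0.03 for Cyp2j6 and Cyp2e1 to 0.62 for Cyp2u1. Cyp4f18, also tested and described further on, had a larger log2 difference of 1.14 (SE 0.57, limma adjusted p 0.377).

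Besides Ces1d, carboxylesterase levels were low. Ces1g had 0.906 and 3.57 FPKM in vestibular 1 and 2 and 0.621 and 0.0867 in cochlear 1 and 2, so its value came mainly from vestibular 2 (log2 difference 1.15, SE 0.55, limma adjusted p 0.364). Ces2g had 0.118 and 0.0355 against 0.418 and 1.12 FPKM. Ces1a had 0.828 and 0.159 FPKM in vestibular cultures and was listed at 0 in both cochlear libraries. Ces2e and Ces2c, the next in level, did not exceed 0.201 FPKM in any library.

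The mu-class glutathione transferases differed between libraries in total and in makeup. The Gstm genes summed to 410 and 459 FPKM in vestibular 1 and 2 and to 311 and 602 in cochlear 1 and 2. Gstm1 measured 207 and 277 FPKM in vestibular against 107 and 177 in cochlear cultures, with both vestibular values the highest (log2 difference 0.80, SE 0.32, limma adjusted p 0.309). Gstm2 lay the other way, at 109 and 89.9 against 124 and 344 FPKM, with cochlear 2 far above the other 3 (log2 difference -1.05, SE 0.55, limma adjusted p 0.395). Without cochlear 2 the difference of Gstm2 was -0.32. The ratio of Gstm2 to Gstm1, computed within each library, was 0.528 and 0.325 in vestibular cultures and 1.16 and 1.95 in cochlear cultures. Gstm1 thus held 50.5% and 60.3% of the mu-class sum in vestibular, against 34.3% and 29.3% in cochlear cultures. Gstm2 held 26.7% and 19.6% against 39.9% and 57.1%.

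Gstm5, the mu-class gene whose sequence lies farthest from Gstm1 in the stretch shown, differed little between libraries, at 73.7 and 69.7 against 63.2 and 65.2 FPKM (log2 difference 0.16, SE 0.10, limma adjusted p 0.453). Gstm6 and Gstm7 were low and higher in both vestibular libraries. Gstm7 had 4.87 and 8.76 against 1.18 and 2.88 FPKM (log2 difference 1.38, SE 0.43, limma adjusted p 0.250). Gstm6 had 3.33 and 3.69 against 1.76 and 1.53 (0.77, SE 0.18, limma adjusted p 0.192). Of its windows, 11.5% are shared, mostly with Gstm3. These 2 are the members higher in vestibular cultures at an unadjusted p under 0.05.

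**Figure D3:**
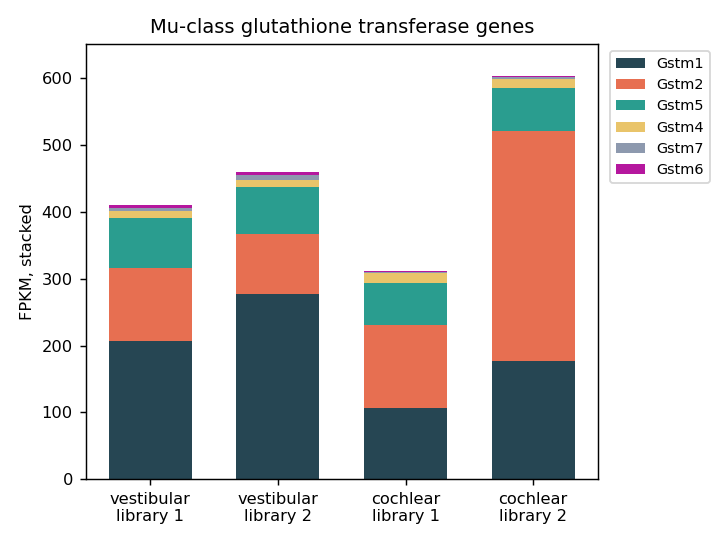
Stacked FPKM of the 6 mu-class genes above 1 FPKM in each of the 4 libraries (Gstm3, at most 0.105 FPKM, is left out). Gstm1 is the largest part of both vestibular bars, and Gstm2 is larger than Gstm1 in both cochlear bars and reaches 344 FPKM in cochlear library 2.

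Of the other glutathione transferases, Gsta4, which conjugates the lipid peroxidation product hydroxynonenal, had 82.9 and 117 FPKM in vestibular 1 and 2 and 42.2 and 67.0 in cochlear 1 and 2. Both vestibular libraries lay above both cochlear ones, by a log2 difference of 0.88 (SE 0.31, limma adjusted p 0.281). Gstp1, the pi-class enzyme, had 57.8 and 87.1 against 47.0 and 58.1 FPKM and its groups overlapped (0.44, SE 0.26, limma adjusted p 0.433). Its near copy Gstp2 reached 1.21 FPKM in vestibular 2 only.

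The membrane-bound enzyme gene Mgst1 differed little between libraries, at 126 and 126 against 113 and 108 FPKM (log2 difference 0.19, SE 0.10, limma adjusted p 0.395). Mgst2, which can make the leukotriene C4, had 1.37 and 0.989 against 2.91 and 2.37 FPKM (-0.74, SE 0.22, limma adjusted p 0.235). Gstk1, the kappa-class enzyme of mitochondria and peroxisomes, had 11.7 and 10.4 against 18.7 and 17.1 FPKM. Its cochlear values were both higher, by a log2 difference of -0.64 (SE 0.12, limma adjusted p 0.169).

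The theta-class genes Gstt1, Gstt3 and Gstt2, the omega-class gene Gsto1, Mgst3, and Gstz1, an enzyme of tyrosine breakdown, had log2 differences between -0.07 for Gstt3 and 0.48 for Gsto1. Gstz1 was the most even of these, at 21.1 and 19.1 against 19.9 and 20.3 FPKM. The exons of Gstz1 overlap Pomt2 on the other strand, and the strand setting of the counting is not given in the sources used here. Gstm4 had a log2 difference of -0.30. Gsta3 was highest in cochlear 2, at 1.97 and 0.484 against 2.29 and 6.801 FPKM, and its log2 difference was -1.27 (SE 0.61).

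UDP-glucuronosyltransferase levels came almost only from the Ugt1a locus on chromosome 1, where separate first exons are usually spliced to shared later exons. In the annotation used, every 50-base window of Ugt1a6a also occurs in a Ugt1a7c transcript, so the levels of these genes are not cleanly separated. Ugt1a7c had 8.61 and 6.03 FPKM in vestibular 1 and 2, 7.15 in cochlear 1 and 0.0733 in cochlear 2. Cochlear 2 was thus 97.5-fold below cochlear 1, which lay between the vestibular libraries (log2 difference 1.47, SE 1.10, limma adjusted p 0.507). Without cochlear 2 the difference was 0.01. Ugt1a6a had 1.73 and 0.836 against 0.592 and 1.53 FPKM, with overlapping groups (0.16, SE 0.38, limma adjusted p 0.845). Its sign turned without vestibular 1 (-0.13) or cochlear 1 (-0.18). Because the later exons are shared, the sum over the Ugt1a genes is the firmer value, and it was 10.6 and 6.86 FPKM against 7.74 and 1.60. The Ugt2 genes summed to at most 0.161 FPKM in any library. Ugt8a, which makes the myelin lipid galactosylceramide, reached 0.222 FPKM, Ugt1a6b 0.258, Ugt2b5 0.107 and Ugt2b36 0.0537.

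Cyp4f18, which inactivates leukotriene B4 in leukocytes, was also lowest in cochlear 2, with 3.57 FPKM in vestibular 1, 2.52 in vestibular 2, 1.98 in cochlear 1 and 0.121 in cochlear 2. Cochlear 2 was 16.4-fold below cochlear 1. Of the 35 members tested, 10 (28.6%) were lowest in cochlear 2, near the 28.1% of all genes. In the same library the 15 macrophage and leukocyte markers summed to 30.5 FPKM, against 9077, 6878 and 7008 in vestibular 1, vestibular 2 and cochlear 1. All 15 were above 1 FPKM in some library. The leukocyte antigen gene Ptprc had 0.0363 FPKM in cochlear 2 and 13.8 to 17.4 in the other 3, and the receptor gene Csf1r had 0.148 and 116 to 219. The part of these cells in the values of Ugt1a7c and Cyp4f18 was not tested. Exons of Cyp4f18 overlap Zfp961 on the other strand, which had 3.19 to 4.17 FPKM in the 4 libraries.

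Epithelial markers differed in the same direction as these 3 cochlear genes, Ces1d, Cyp2d22 and Cyp2s1. The 15 epithelial markers summed to 1129 FPKM in vestibular 1, 117 in vestibular 2, 2239 in cochlear 1 and 2719 in cochlear 2. Of the 15, 13 were lower in both vestibular libraries than in both cochlear ones, as were 28.4% of all genes tested. Vestibular 1 was 9.69-fold above vestibular 2 in this sum, 3.04-fold above it in Cyp2s1 and 1.18-fold in Cyp2d22, and in Ces1d it lay below vestibular 2, at 0.880 of its level. Without vestibular 2 the log2 difference was -2.42 for Cyp2s1, -2.01 for Cyp2d22 and -2.96 for Ces1d. The part of epithelial cells in these differences was not tested.

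**Figure D4:**
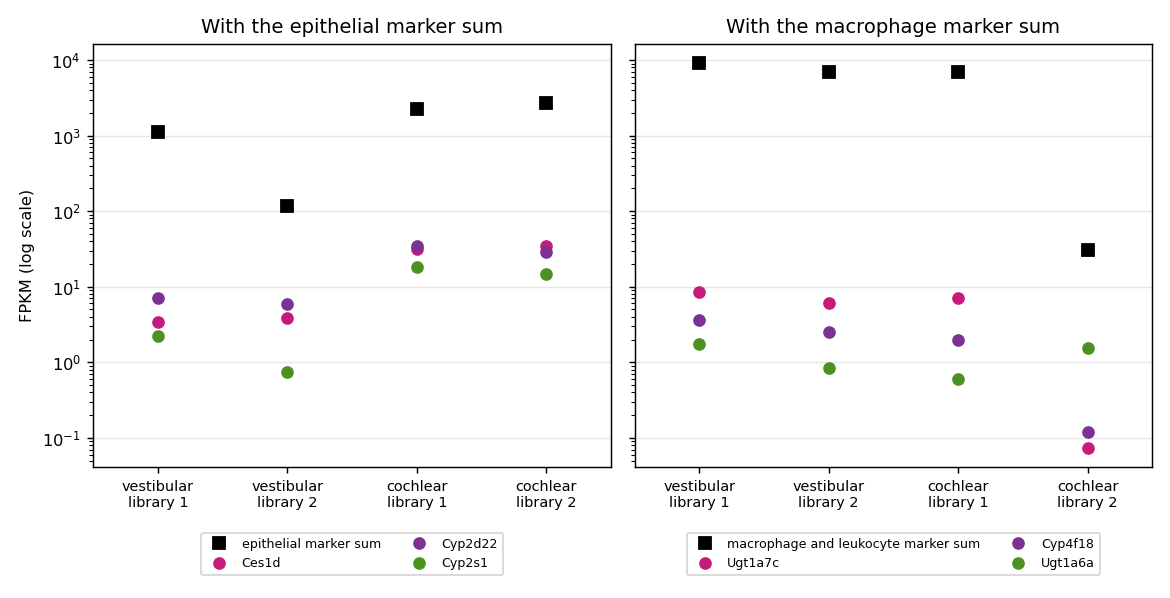
FPKM on a log axis in each library for Ces1d, Cyp2d22 and Cyp2s1 beside the summed level of 15 epithelial markers (left), and for Ugt1a7c, Cyp4f18 and Ugt1a6a beside the summed level of 15 macrophage and leukocyte markers (right). The macrophage sum is at least 6878 FPKM in 3 libraries and 30.5 in cochlear library 2, where Ugt1a7c and Cyp4f18 are also lowest and Ugt1a6a is not.

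Fibroblast and collagen matrix markers lay the other way, with sums of 5829 and 12031 FPKM in vestibular 1 and 2 and 2764 and 2471 in cochlear 1 and 2. Of these 15, 14 were higher in both vestibular libraries, as were 26.9% of all genes tested. Cartilage markers were highest in vestibular 2, at 4937 FPKM against 815, 255 and 271 in vestibular 1, cochlear 1 and cochlear 2. Of the 35 members tested, 13 (37.1%) were highest in vestibular 2, Gstm1, Gsta4 and Gstm7 among them, against 30.1% of all genes. Lowest in cochlear 1 were 13 (37.1%), against 20.1%, and lowest in vestibular 1 were 3 (8.57%), against 22.1%. Cochlear 2 was 1.65-fold cochlear 1 in Gstm1, 1.59-fold in Gsta4 and 2.44-fold in Gstm7. It was 0.894-fold in the fibroblast sum and 1.06-fold in the cartilage sum. The part of fibroblasts and cartilage cells in the values of these genes was not tested. The sums of the other lists were 13.1 to 21.6 FPKM for endothelial, 57.1 to 261 for melanocyte, 205 to 378 for Schwann and glial, and 30.6 to 42.9 for hair cell markers. Of the hepatocyte markers, 10 of 12 were below 1 FPKM in every library. Their sum was 78.7 FPKM in vestibular 1, where transthyretin (Ttr) alone had 77.9, and 1.82 to 5.004 in the other 3 libraries. Fgb and Tat were listed at 0 in all 4, and albumin (Alb) reached 0.0513 FPKM.

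Other genes of the pathway were taken from 4 lists of 124 genes, of which 85 were tested. Limma called none, where 0.0303% of all genes were called. At an unadjusted p under 0.05 there were 21 (24.7%, against 18.2% of all genes), 13 higher and 8 lower in vestibular cultures, and their median log2 difference was 0.14. Among the sensors, 17 of 26 were tested and 5 had an unadjusted p under 0.05 (29.4%, against 18.2% of all genes), with 3 higher and 2 lower in vestibular cultures. Ahr, the sensor of dioxins and polycyclic hydrocarbons, had 9.86 and 7.53 FPKM in vestibular 1 and 2 and 18.5 and 18.2 in cochlear 1 and 2 (log2 difference -1.005, SE 0.16, limma adjusted p 0.138). The small Maf factor gene Maff had 14.5 and 9.67 against 25.3 and 31.1 FPKM (-1.17, limma adjusted p 0.181). Rxra, the partner of the nuclear receptors, had 32.8 and 41.7 against 27.7 and 23.8, Pparg 4.84 and 3.38 against 2.41 and 2.01, and the glucocorticoid receptor gene Nr3c1 21.5 and 26.1 against 18.3 and 14.8. Nfe2l2, which encodes the antioxidant regulator Nrf2, was the most abundant on this list, at 65.9 and 60.6 against 50.3 and 53.5 FPKM (0.28, limma adjusted p 0.294). Nr1i2 and Nr1i3 reached at most 0.0954 and 0.0856 FPKM.

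The list of P450 partners and other first-phase enzymes had 31 of 41 genes tested and 8 with an unadjusted p under 0.05 (25.8%, against 18.2% of all genes), 5 higher and 3 lower in vestibular cultures, where 7.61% and 10.6% of all genes were. Por, the reductase that passes electrons to microsomal P450s, had 67.5 and 47.1 FPKM in vestibular 1 and 2 and 98.5 and 110.3 in cochlear 1 and 2, so that it lay on the same side as Cyp2d22 and Cyp2s1 (log2 difference -0.87, SE 0.22, limma adjusted p 0.209). Cytochrome b5 (Cyb5a), another electron donor, lay on the other side, at 194 and 199.7 against 139 and 124 FPKM (0.58, limma adjusted p 0.174). Xanthine dehydrogenase (Xdh) had 10.7 and 9.21 against 30.7 and 22.7 FPKM (-1.33, limma adjusted p 0.128), and the aldehyde dehydrogenase gene Aldh1a1 had 134 and 80.8 against 198 and 212 (-0.97, limma adjusted p 0.235). Higher in both vestibular libraries were the carbonyl reductase gene Cbr2, at 42.0 and 32.8 against 7.83 and 6.88 FPKM (2.19, limma adjusted p 0.0754), and the monoamine oxidase gene Maoa, at 21.01 and 19.5 against 8.48 and 9.47 (1.09, limma adjusted p 0.106). Epoxide hydrolase (Ephx1), which opens epoxides made by P450s, was abundant and overlapped between groups, at 199 and 275 against 148 and 205 FPKM. Akr1a1, Cyb5r3 and Pgrmc1 were the other 3 of the 4 most abundant, with log2 differences of 0.07, -0.11 and 0.16.

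Of the other conjugating enzymes 21 of 31 were tested and 4 had an unadjusted p under 0.05, 1 higher and 3 lower in vestibular cultures, a share of 19.0% that lies near the 18.2% of all genes. The phenol sulfotransferase gene Sult1a1 had 9.91 and 7.70 FPKM in vestibular 1 and 2 and 3.34 in each cochlear library (log2 difference 1.17, SE 0.17, limma adjusted p 0.130). Papss1, which makes the sulfate donor, lay opposite, at 34.9 and 33.4 against 46.7 and 53.9 FPKM (-0.54, limma adjusted p 0.189). Dpep1, a dipeptidase of glutathione breakdown, had a log2 difference of -0.77, and the methyltransferase gene Nnmt -0.60. The amine methyltransferase gene Inmt was the most abundant of the list, at 165 and 215 against 198 and 216 FPKM.

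Transporters had 16 of 26 genes tested, and all 4 with an unadjusted p under 0.05 (25.0%, against 18.2% of all genes) were higher in vestibular cultures, as were 7.61% of all genes. The organic anion transporter gene Slco4a1 had 12.9 and 11.9 FPKM in vestibular 1 and 2 and 2.21 and 0.783 in cochlear 1 and 2 (log2 difference 2.49, SE 0.34, limma adjusted p 0.122). Slco1a5 had 9.64 and 8.20 against 4.14 and 3.83 FPKM (0.99, limma adjusted p 0.131), and Slco1a4 23.9 and 49.1 against 8.55 and 10.9 (1.73, limma adjusted p 0.196). The efflux pump gene Abcc4 had 4.72 and 8.50 against 2.27 and 2.01 FPKM (1.23, limma adjusted p 0.210). The median log2 difference of the transporters tested was 0.90, against 0.01 over all genes. It was positive in 13 and negative in 3, and positive in 6788 of all 13200 genes. Some positive values came mainly from 1 library. Abcc3 had 14.6 and 9.45 against 10.6 and 1.35 FPKM, Slco2b1 had 5.20 and 3.04 against 4.46 and 0.130, and Slc22a2 had 0.109 and 5.27 against 0.0478 and 0.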

How the data were processed

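RNA sequencing was done on 2 vestibular and 2 cochlear primary cultures of the mouse inner ear, from total RNA taken up in TRIzol and a TruSeq stranded kit selecting mRNA, per the labels' protocols. The authors deposited 1 FPKM value per gene symbol and sample, per the file headers. Build mm10 was used with Cuffdiff 2.2.1, TopHat2 2.1.1, SAMtools 0.1.18 and Bowtie2 2.2.8, per the submitters' processing notes. For settings, annotation, strand and scaling, the answer is not given in the sources used here, and depth is unknown. No column lay outside the 4 samples.

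Genes with a mean of at least 1 FPKM were compared as log2(FPKM + 1) with limma 3.58.1 in R 4.3.3 (eBayes with a trend, 2-sided, Benjamini-Hochberg adjustment, threshold 0.05). The fit was tested on simulated data. Positions and transcripts came from GENCODE M21 on GRCm38, the assembly named mm10, and all 39 members matched a symbol. The members, gene lists and markers were chosen with earlier results of these data known. Given in full are members with an unadjusted p under 0.05 and, in each family, the 6 with the highest level in any library. From each list of other pathway genes, up to 6 genes with the smallest unadjusted p under 0.05 and the 4 highest mean levels could be named. Other genes named were chosen after their values were seen. Alternatives tried were other pseudocounts, filters, scaling and variance settings, a replicate block, and leaving out each library.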

Additional observations from a re-analysis of the deposited data

How the results depend on the processing

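No enzyme family member and no gene of the other pathway lists passed limma's adjusted threshold under any of the 11 alternatives run. Over all genes the 4 calls became 2 with no filter on low values, 0 with the replicate number as a block, and 0 to 0 when 1 library was left out. Members with an unadjusted p under 0.05 numbered 5 to 11 when 1 library was left out, with 11 reached without vestibular 1, and 10 with the replicate block. The share of all genes was 14.3% with the block. The members numbered 5 without vestibular 2. Leaving out 1 library also moved the share of all genes. Such a fit has 1 sample in a group, so its count of members is not read as an excess or a lack. Whether equally numbered libraries are pairs is not stated. Their deviations from the group means correlated at 0.0432 across 13200 genes. With 1 difference per group, this value cannot decide the question. The members' median log2 difference was 0.039 with no filter on low values, where 71 members were tested. Of 220 values of 20 named members, 217 kept their sign and side of the threshold. The exceptions came from leaving out 1 library, over which Cyp1b1 ran from -0.22 to 0.52 and Ugt1a6a from -0.18 to 0.49, reaching -0.13 without vestibular 1. The cause was not tested. Fragment counts are unknown, so no counting error can be given for low genes. In fits without 1 library, the lone sample was assumed to vary like the other group.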

Other observations

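Nqo1, a quinone reductase gene known as a target of Nrf2, and the aldehyde dehydrogenase gene Aldh2 were picked out after their values were seen. Nqo1 had 15.8 and 47.2 FPKM in vestibular 1 and 2 and 5.63 and 8.39 in cochlear 1 and 2 (log2 difference 1.85, SE 0.60, limma adjusted p 0.255). Aldh2 had 153 and 156 against 123 and 93.5 FPKM (0.53, SE 0.17, limma adjusted p 0.260). Ttr, the hepatocyte marker gene for the thyroid hormone carrier transthyretin, was also picked out after its value was seen. It stood at 77.9 FPKM in vestibular 1, was listed at 0 in vestibular 2, and had 2.19 and 3.03 in the cochlear libraries.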
